A study of Mus musculus with 6 samples.

Results

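Respiratory complex I is represented here by every symbol of the deposited count table that begins with Nduf, the mouse gene names for nuclear-encoded subunits and assembly factors of NADH:ubiquinone oxidoreductase, apart from those marked as pseudogenes by the ending -ps. The rule found 49 symbols among the 55453 in the table. By prefix they comprised 16 Ndufa symbols, 11 Ndufb symbols, 14 Ndufs, Ndufv and Ndufc symbols and 8 Ndufaf symbols, and 45 of the 49 carried enough reads to be tested. Of the 16 Ndufa members 14 were tested, of the 11 Ndufb members 10, of the 14 Ndufs, Ndufv and Ndufc members 13, and of the 8 Ndufaf members all 8.

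The measurements are poly(A)-selected RNA sequencing counts from 6 libraries whose source is SB28, a mouse glioma line, with the strain label C57BL/6. The genotype label is PP2A KO for 3 libraries, titled PP2AcKO, and wild type for 3, titled PP2AcWT. PP2Ac is the subunit that gives protein phosphatase 2A its serine and threonine phosphatase activity. The design text instead describes SB28 grown as tumours in mice, either wild type or carrying floxed PP2Ac together with a Cre driven by LysM, which acts in myeloid cells. The labels do not settle whether SB28 itself or host cells carried the deletion, how a line was made, or whether the libraries came from separate cultures or animals, so the p-values reflect only how far these libraries vary, possibly for technical reasons.

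Complex I takes electrons from NADH and passes them to ubiquinone while pumping protons out of the mitochondrial matrix. Its matrix arm holds the N module, where NADH is oxidised, and the Q module, where quinone is reduced, and its membrane arm pumps the protons. The core subunits of the matrix arm are Ndufs and Ndufv proteins, the hydrophobic core of the membrane arm is encoded in mitochondrial DNA, and most Ndufa, Ndufb and Ndufc proteins are accessory subunits around that core. Ndufaf proteins help to build the complex and are not part of it. In bulk RNA, fewer cells of a type and less RNA per cell cannot be told apart.

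Library totals lay between 40245915 and 46149908 counts in PP2AcKO and between 38735864 and 49344079 in PP2AcWT. Replicate 1 of each group differed from its replicates 2 and 3 far more than those did from each other. Ppp2ca, the gene of the targeted subunit, stood at 217, 187 and 193 CPM (counts scaled to a common library size) in PP2AcKO and at 274, 244 and 247 CPM in PP2AcWT. The groups did not overlap, and the log2 fold change was -0.36 (SE 0.08, edgeR adjusted p = 0.00377), so the message was lowered but still abundant in the libraries labelled PP2AcKO. The 7 glial and progenitor markers summed to 283 to 301 CPM in PP2AcKO and 511 to 555 CPM in PP2AcWT. Nes gave most of that sum and Olig2 was at 0 in every library. Of the 5 tested, 4 fell, Cspg4 most (16 counts in PP2AcKO, 1164 in PP2AcWT), and Pdgfra rose (log2 fold change 0.30). Adgre1, which marks macrophages, and Cldn5, which marks brain endothelium, were at 0 in every library, as were Cd3e, Cd3g, Cd8a and Cd2 of T cells. The 7 myeloid markers summed to 4.75 to 5.31 CPM in PP2AcKO and 3.17 to 3.58 CPM in PP2AcWT, mostly from Cd68. Below the filter, Ptprc had 11 counts in PP2AcKO and 31 in PP2AcWT, Csf1r had 10 and 23, Itgam 2 and 0, and Aif1 1 and 1. Lyz2, also below it, had 44 counts in PP2AcKO and 1 in PP2AcWT. The 5 endothelial markers summed to 419 to 456 CPM in PP2AcKO and 399 to 431 CPM in PP2AcWT, nearly all from Cdh5. Pecam1, in the same list, had 43 counts in PP2AcKO and 37 in PP2AcWT. Within that list Kdr rose (log2 fold change 2.23) and Tek fell (-2.23), both at low levels. The part of the glial, myeloid and endothelial marker differences in the results below was not tested.

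Messages of complex I subunits were mostly lower in PP2AcKO, by modest amounts, while those of the Ndufaf assembly factors were mixed. The 45 tested members divided into 31 that fell, 2 that rose and 12 that missed the threshold of an adjusted p under 0.05 in edgeR's quasi-likelihood test. Over all 14877 genes tested the same rule called 32.1% lower and 31.9% higher, against 68.9% and 4.44% of the members. The members' median log2 fold change was -0.41, with a range of -0.99 to 0.33, beside -0.01 over all genes. All 3 PP2AcKO libraries lay below all 3 PP2AcWT libraries for 31 members, as for 34.4% of all genes, and above them for 2 members, as for 33.9% of all genes.

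Fold changes were small for nearly every member. Of the 45, 12 passed and were at least 1.5-fold lower, as were 19.7% of all genes, and no member was 2-fold lower. Tested against a 1.5-fold change, 4 members passed, namely Ndufa5, Ndufa8, Ndufa9 and Ndufb10. Of the 14877 genes tested, 1957 passed lower and 2009 higher in that test. Summed over the 49 members, complex I messages came to 1326 ± 54.9 CPM in PP2AcKO and 1750.5 ± 82.7 CPM in PP2AcWT (SD, n = 3 each), so the PP2AcKO sum was 75.8% of the PP2AcWT sum.

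**Figure D1:**
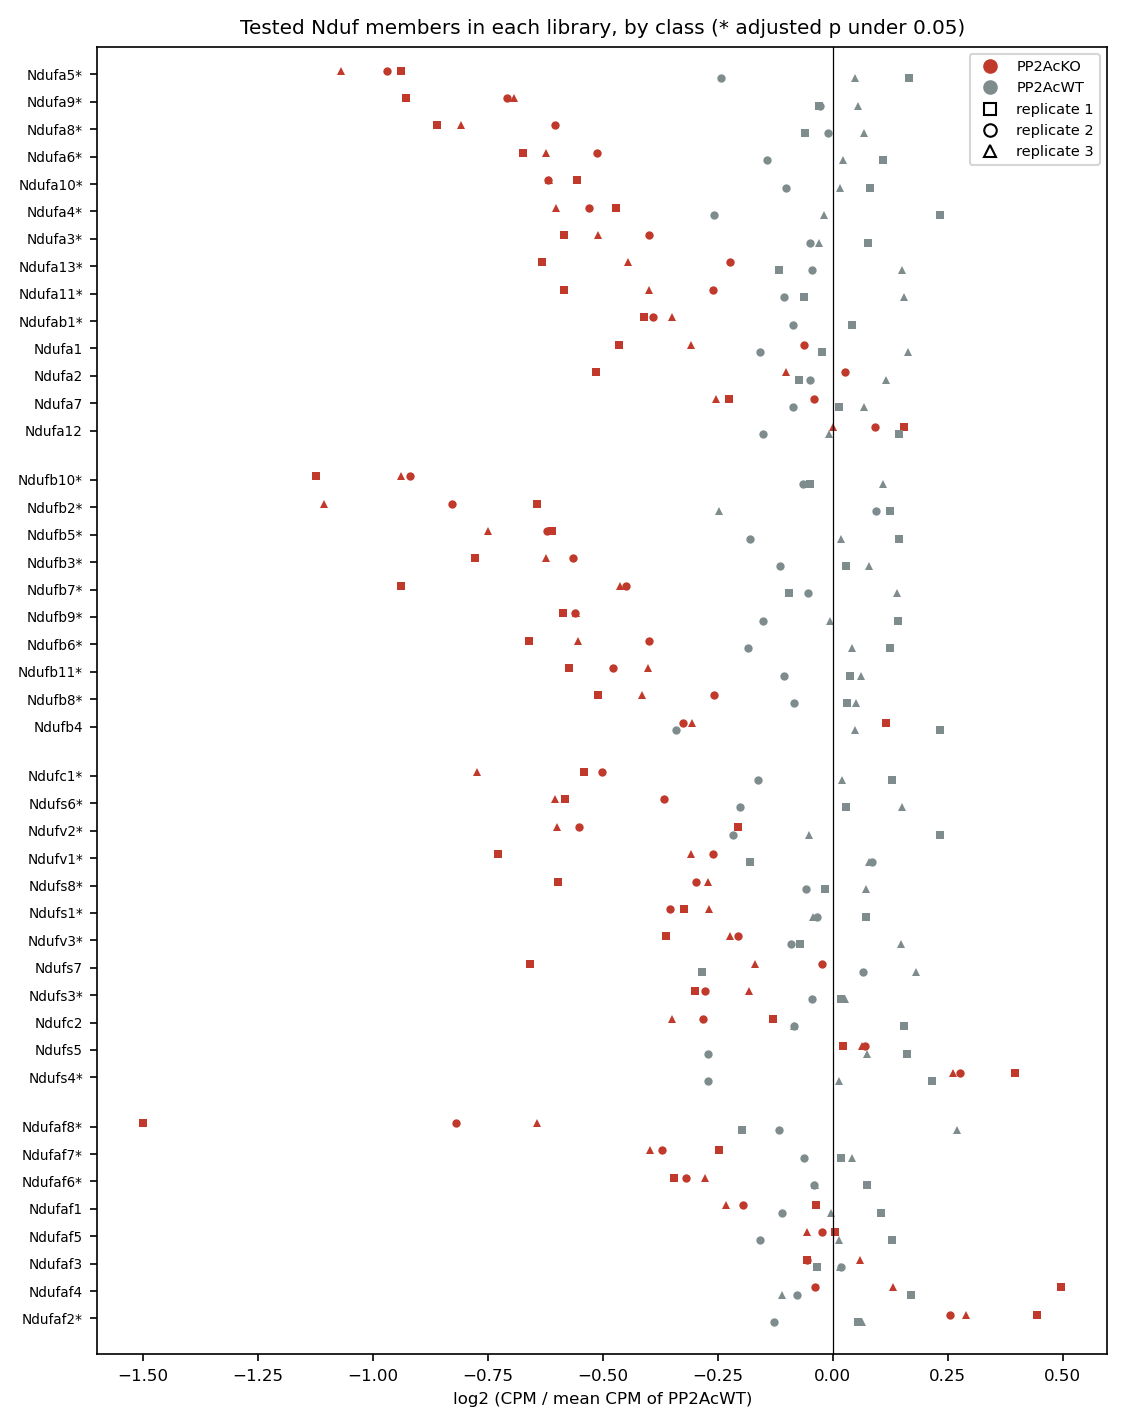
Each row is a tested member described here, grouped by class and ordered by fold change, and each point is 1 library as log2 of its CPM over the mean CPM of PP2AcWT, with PP2AcKO in red and PP2AcWT in grey. Ndufa5 and Ndufb10 stand near -1 in PP2AcKO, the red points of Ndufaf3, Ndufaf4 and Ndufaf5 lie on both sides of 0, and replicate 1 of PP2AcKO (square) is the lowest red point for Ndufs7, Ndufv1, Ndufb7 and Ndufaf8.

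The promoter sequences of 4 members are shown because 3 of them fell, 1 rose and 3 hold the letters bound by NRF1, a transcription factor of nuclear mitochondrial genes whose own message rose. Each is the RefSeq window on GRCm38.p6 from 250 bases before to 50 after an annotated start, written 5′ to 3′ on the gene's strand, which is the minus strand for all 4, with a match to the NRF1 palindrome in capitals. The letters searched were those in capitals in Ndufa5, read on either strand, with any base allowed at the sixth place. Ndufa5 had the lowest log2 fold change of the members that passed, Ndufaf2 the highest, and Ndufa8 and Ndufa6 are further members with the NRF1 letters. RefSeq lists a second, overlapping Ndufa5 window, for a start further downstream, that holds the same match farther from that start.
Ndufa5, chr6:24527641-24527940: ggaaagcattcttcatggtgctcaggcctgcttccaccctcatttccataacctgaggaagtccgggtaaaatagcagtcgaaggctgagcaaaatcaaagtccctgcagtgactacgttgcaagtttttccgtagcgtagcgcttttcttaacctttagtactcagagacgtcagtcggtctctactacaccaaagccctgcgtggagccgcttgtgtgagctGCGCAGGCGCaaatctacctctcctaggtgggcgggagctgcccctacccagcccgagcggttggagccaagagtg
Ndufa8, chr2:36049289-36049588: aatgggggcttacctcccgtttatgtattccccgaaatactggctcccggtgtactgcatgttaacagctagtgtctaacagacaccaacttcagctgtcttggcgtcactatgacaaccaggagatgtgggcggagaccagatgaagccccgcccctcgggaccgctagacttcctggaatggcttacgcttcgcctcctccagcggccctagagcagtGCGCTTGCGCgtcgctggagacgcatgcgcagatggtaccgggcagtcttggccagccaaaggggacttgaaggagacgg
Ndufa6, chr15:82354242-82354541: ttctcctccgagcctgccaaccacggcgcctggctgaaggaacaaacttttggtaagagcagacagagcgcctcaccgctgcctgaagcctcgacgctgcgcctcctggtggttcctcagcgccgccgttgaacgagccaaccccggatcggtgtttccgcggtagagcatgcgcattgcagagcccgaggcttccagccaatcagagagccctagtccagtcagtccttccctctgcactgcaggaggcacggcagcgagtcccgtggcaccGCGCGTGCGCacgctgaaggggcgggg
Ndufaf2, chr13:108158576-108158875: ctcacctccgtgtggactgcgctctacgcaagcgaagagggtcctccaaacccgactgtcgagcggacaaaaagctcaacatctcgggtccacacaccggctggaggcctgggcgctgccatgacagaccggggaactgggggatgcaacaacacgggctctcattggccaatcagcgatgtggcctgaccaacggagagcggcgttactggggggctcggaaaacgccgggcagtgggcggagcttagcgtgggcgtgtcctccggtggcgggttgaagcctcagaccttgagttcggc

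In the Ndufa5 and Ndufa8 windows printed the NRF1 letters lie shortly before the annotated start, and in Ndufa6 shortly after it, while the Ndufaf2 window holds none of the NRF1, ETS or YY1 letters. Windows were found for 40 of the 45 tested members and each motif was searched on both strands. A gene was counted if any of its windows held the letters. The NRF1 letters were found for 9 of the 40 members (22.5%) and for 11.2% of 10678 tested genes. Counted by single window instead, they stood in 4.603% of all 32851 windows. They were present in 5 of the 27 members that fell and in 4 of the 13 others. The letters of the ETS factor GABPA, CCGGAAG, were found for 6 members (15.0%) and for 19.5% of tested genes. The letters of YY1, AAGATGGC, were found for 8 members (20%) and for 5.12% of tested genes. The YY1 letters were present in 6 of the 27 members that fell and in 2 of the 13 others. The GC box GGGCGG was found for 21 members (52.5%) against 68.0% of tested genes. The E-box CACGTG was found for 2 (5.0%) against 11.7%, and the ERRA letters TCAAGGTCA for none of the 40 against 0.309%. A match describes letters and is no measure of binding.

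Core subunits of the matrix arm were mostly lower in PP2AcKO. Ndufs1, an iron-sulfur subunit of the N module, stood at 88.6, 86.8 and 92.0 CPM in PP2AcKO and at 117, 108 and 108 CPM in PP2AcWT. Its log2 fold change was -0.32 (SE 0.07, adjusted p = 0.00254), without overlap between the groups. Ndufv1, which binds NADH and FMN, fell by 0.42 on the log2 scale, and replicate 1 of PP2AcKO was its lowest library at 55.7 CPM, against 77.1 and 74.6 CPM in the other PP2AcKO libraries. Ndufv2 passed (-0.44) although the groups overlapped, with 57.1 CPM in PP2AcKO replicate 1 and 56.6 CPM in PP2AcWT replicate 2. Leaving out PP2AcWT replicate 2 or 3 took the Ndufv1 call (adjusted p = 0.0678 and 0.0597), and leaving out PP2AcKO replicate 2 or 3 or PP2AcWT replicate 1 took that of Ndufv2 (0.0658, 0.0769 and 0.0571). Ndufs8 (-0.38) and Ndufs3 (-0.25) also fell, and the Ndufs3 call was lost without PP2AcKO replicate 2 (adjusted p = 0.0541) or PP2AcWT replicate 3 (0.0508).

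Ndufs7, an iron-sulfur core subunit of the Q module, did not pass. It stood at 29.0, 45.1 and 40.7 CPM in PP2AcKO and at 37.6, 47.9 and 51.9 CPM in PP2AcWT, with both libraries numbered 1 the lowest of their groups. With the replicate number as a block its log2 fold change was -0.27 (adjusted p = 0.00039), and without both libraries numbered 1 it was -0.21 (adjusted p = 0.00131). The block was chosen from these data, and the labels do not say that equal numbers mark pairs. In deviation from its group mean, PP2AcKO replicate 2 correlated as much with PP2AcWT replicate 3 (Pearson r 0.19) as with PP2AcWT replicate 2 (0.16). The fit without the libraries numbered 1 has fewer libraries per group. These limits hold for every value from either fit below.

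The other Ndufs, Ndufv and Ndufc members went both ways. Ndufc1, an accessory subunit of the membrane arm, stood at 14.5, 14.9 and 12.4 CPM in PP2AcKO and at 23.1, 18.9 and 21.4 CPM in PP2AcWT. Ndufs6, a zinc-binding subunit added late to the N module, stood at 10.9, 12.6 and 10.7 CPM in PP2AcKO and at 16.7, 14.2 and 18.1 CPM in PP2AcWT. Neither pair of groups overlapped, and the log2 fold changes were -0.60 (SE 0.11, adjusted p = 0.00119) for Ndufc1 and -0.51 (SE 0.12, adjusted p = 0.00406) for Ndufs6. Ndufv3, an accessory subunit of the N module, fell by 0.26 on the log2 scale, a call lost without PP2AcKO replicate 1 (adjusted p = 0.0686), PP2AcKO replicate 3 (0.0615) or PP2AcWT replicate 3 (0.13).

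Ndufs4, an accessory subunit of the N module whose loss in mice causes a Leigh-like encephalopathy, was the 1 subunit that rose. It stood at 24.3, 22.4 and 22.2 CPM in PP2AcKO and at 21.5, 15.3 and 18.7 CPM in PP2AcWT. The groups did not overlap but came close, and the log2 fold change was 0.31 (SE 0.12, adjusted p = 0.0498). The call was lost when any library but PP2AcWT replicate 1 was left out, with adjusted p between 0.0743 and 0.157, and held with the replicate block (0.000655) and without both libraries numbered 1 (0.000115). Ndufs4 (ENSMUSG00000021764.8) lies on chromosome 13, 114287795 to 114388258, minus strand, in GENCODE M21 on GRCm38, the source of all gene positions here. Ndufc2 had no overlap between the groups but missed the threshold (-0.25, adjusted p = 0.0531), which it passed with the replicate block (0.000814), upper-quartile factors (0.0212) or library totals alone (0.0168), and without PP2AcKO replicate 1 (0.0234) or both libraries numbered 1 (0.00566). Ndufs5 stood at 18.6 ± 0.334 CPM in PP2AcKO and 17.9 ± 2.73 CPM in PP2AcWT (SD, n = 3 each).

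Ndufa members, accessory subunits spread over both arms, fell in 10 of 14 cases (71.4%) and rose in none. Over all genes 32.1% fell and 31.9% rose. The Ndufa median log2 fold change was -0.46. Ndufa5, an accessory subunit of the Q module, stood at 11.6, 11.4 and 10.6 CPM in PP2AcKO and at 24.97, 18.8 and 23.0 CPM in PP2AcWT. Every PP2AcKO library lay well below every PP2AcWT library, and its log2 fold change, the lowest of all 45 tested members, was -0.99 (SE 0.12, adjusted p = 7.7e-05). Ndufa5 (ENSMUSG00000023089.12) lies on chromosome 6, 24518666 to 24528013, minus strand. Ndufa9, a subunit near the quinone site with a nucleotide-binding fold, stood at 34.1, 39.75 and 40.1 CPM in PP2AcKO and at 63.6, 63.7 and 67.4 CPM in PP2AcWT. Its libraries fell into narrow, separate ranges, and the log2 fold change was -0.77 (SE 0.08, adjusted p = 4.3e-05).

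Ndufa8 and Ndufa10 belong to the proximal part of the membrane arm. Ndufa8, on the intermembrane-space side, stood at 35.0, 41.8 and 36.3 CPM in PP2AcKO and at 60.9, 63.0 and 66.5 CPM in PP2AcWT, and its log2 fold change was -0.75 (SE 0.09, adjusted p = 6.3e-05). Ndufa10, a relative of nucleoside kinases, stood at 70.2, 67.3 and 67.4 CPM in PP2AcKO and at 109, 96.2 and 104.5 CPM in PP2AcWT, and its log2 fold change was -0.60 (SE 0.07, adjusted p = 8.3e-05). In both cases the groups were apart, and all 3 PP2AcKO libraries of Ndufa10 agreed closely. Ndufa6, Ndufa3, Ndufa13, Ndufa11 and Ndufab1, the mitochondrial acyl carrier protein, fell by 0.60, 0.50, 0.42, 0.41 and 0.38 on the log2 scale. Of the exon bases of Ndufa13, 30.0% lie opposite exons of Tssk6, which had 4 counts over the PP2AcKO libraries and 11 over the PP2AcWT libraries.

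Ndufa1, Ndufa2, Ndufa7 and Ndufa12 did not pass. The first 3 had log2 fold changes of -0.27, -0.18 and -0.17, and passed with the replicate block (adjusted p = 0.0121, 0.0205 and 0.0157). Ndufa1 and Ndufa7 also passed with upper-quartile factors (0.042 and 0.0328) and with library totals alone (0.0342 and 0.0244), and Ndufa1 without PP2AcKO replicate 2 (0.0298). Ndufa12, which takes the place of the assembly factor Ndufaf2 at the end of N module assembly, stood at 56.8, 54.4 and 51.0 CPM in PP2AcKO and at 56.4, 45.9 and 50.7 CPM in PP2AcWT. The groups overlapped (log2 fold change 0.08, SE 0.09, adjusted p = 0.437), and without both libraries numbered 1 the value was 0.13 (adjusted p = 0.0232).

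Ndufa4, named as a complex I subunit but now counted as part of complex IV, stood at 36.5, 35.1 and 33.4 CPM in PP2AcKO and at 59.6, 42.4 and 50 CPM in PP2AcWT. PP2AcKO libraries were close together and PP2AcWT libraries spread, without overlap (log2 fold change -0.53, SE 0.12, adjusted p = 0.00357). Its paralogue Ndufa4l2, known as a hypoxia-induced gene, was close to silent, with 5, 4 and 2 counts in PP2AcKO and 4, 0 and 0 counts in PP2AcWT. It lay below the filter, as did 3 symbols that GENCODE lists as processed pseudogenes. Ndufa11b had 0, 1 and 0 counts in PP2AcKO and 0, 1 and 1 in PP2AcWT, Ndufb4c had 0, 0 and 1 in PP2AcKO and 2, 0 and 1 in PP2AcWT, and Ndufs6b had 0, 1 and 0 in PP2AcKO and 1, 2 and 0 in PP2AcWT.

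Ndufb members, accessory subunits of the membrane arm and mostly of its distal part, fell in 9 of 10 cases (90%), beside 32.1% of all genes. Their median log2 fold change was -0.58. Ndufb10, a subunit on the intermembrane-space side, stood at 20.4, 23.5 and 23.2 CPM in PP2AcKO and at 42.9, 42.5 and 47.9 CPM in PP2AcWT. Its PP2AcKO mean was 50.3% of the PP2AcWT mean, the groups lay far apart, and the log2 fold change was -0.99 (SE 0.09, adjusted p = 1.4e-05). Ndufb10 (ENSMUSG00000040048.14) lies on chromosome 17, 24722060 to 24724478, minus strand. Ndufb3, a single-pass membrane subunit, stood at 10.5, 12.2 and 11.7 CPM in PP2AcKO and at 18.4, 16.6 and 19.0 CPM in PP2AcWT. Ndufb5, also a single-pass membrane subunit, stood at 21.7, 21.5 and 19.7 CPM in PP2AcKO and at 36.5, 29.2 and 33.5 CPM in PP2AcWT.

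The groups were separate for Ndufb3 and for Ndufb5, with log2 fold changes of -0.65 (SE 0.10, adjusted p = 0.000338) and -0.66 (SE 0.10, adjusted p = 0.000365). Ndufb11, an X-linked subunit, stood at 36.2, 38.6 and 40.7 CPM in PP2AcKO and at 55.3, 50.01 and 56.2 CPM in PP2AcWT. Its groups too showed no overlap (log2 fold change -0.48, SE 0.08, adjusted p = 0.00063). Of the exon bases of Ndufb11, 12.9% lie opposite exons of Rbm10. Rbm10 fell by 0.80 on the log2 scale, with 7401 counts in PP2AcKO and 13889 in PP2AcWT. Ndufb2, Ndufb7, Ndufb9, Ndufb6 and Ndufb8 fell by 0.85, 0.60, 0.57, 0.53 and 0.39 on the log2 scale, and in Ndufb7 replicate 1 of PP2AcKO was low at 21.8 CPM, against 30.6 and 30.3 CPM in the other PP2AcKO libraries. Of the exon bases of Ndufb6, 39% lie opposite exons of Smim27, and Smim27 itself fell by 1.23 on the log2 scale (adjusted p = 0.00163), with 72 counts in PP2AcKO and 183 in PP2AcWT. Ndufb4 did not pass (-0.16, adjusted p = 0.435). Ndufb1-ps, which the rule leaves out by its ending although RefSeq names that gene Ndufb1, stood at 14.1 ± 1.12 CPM in PP2AcKO and 17.6 ± 4.72 CPM in PP2AcWT (log2 fold change -0.32, adjusted p = 0.129).

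By place in the complex, from textbook assignments, 9 of 10 distal membrane arm members fell (median log2 fold change -0.58), 6 of 9 in the proximal membrane arm (-0.42), 5 of 6 in the Q module (-0.42) and 6 of 10 in the N module (-0.29), where Ndufs4 rose. Over all genes tested 32.1% fell, and whether these places differ from each other was not tested.

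The sums of CPM show the same order by class. The Ndufb sum in PP2AcKO was 66.7% of that in PP2AcWT, with 189.5 ± 8.86 CPM in PP2AcKO and 284 ± 19.8 CPM in PP2AcWT (SD, n = 3 each). The Ndufa sum was 495 ± 28.5 CPM in PP2AcKO and 675 ± 37.8 CPM in PP2AcWT, and the Ndufs, Ndufv and Ndufc sum was 551 ± 27.6 CPM in PP2AcKO and 699 ± 22.2 CPM in PP2AcWT. For these 3 classes every PP2AcKO library lay below every PP2AcWT library. The Ndufaf sum was 98.6, 84.5 and 88.2 CPM in PP2AcKO and 97.0, 86.6 and 92.3 CPM in PP2AcWT, and the groups overlapped.

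**Figure D2:**
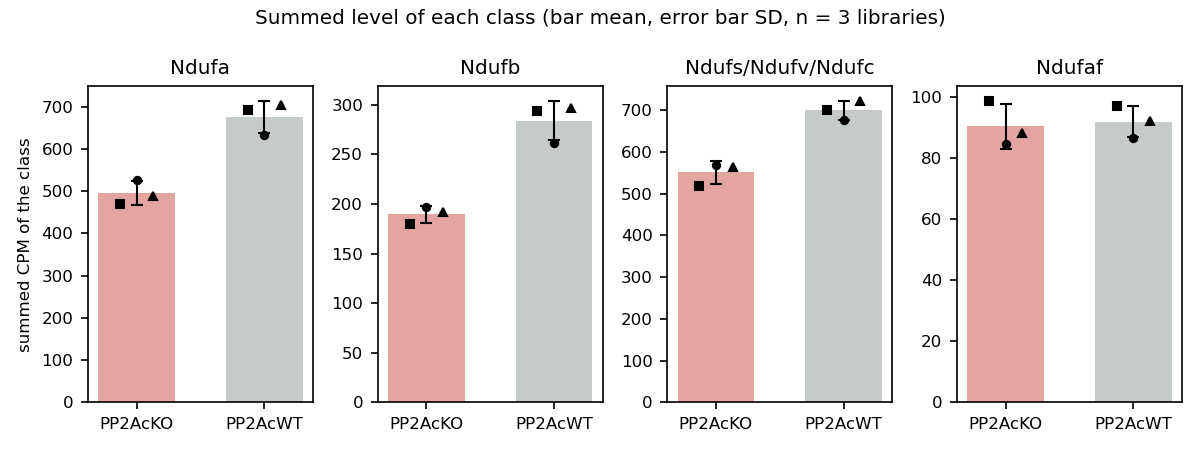
Bars are the mean summed CPM of each class and error bars the SD over 3 libraries, with PP2AcKO left of PP2AcWT and points for single libraries (square, circle and triangle for replicates 1, 2 and 3). The PP2AcKO sum is 73.3% of the PP2AcWT sum for Ndufa, 66.7% for Ndufb, 78.8% for Ndufs, Ndufv and Ndufc, and 98.4% for Ndufaf.

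Ndufaf assembly factors were divided. Of the 8, 3 fell, 1 rose and 4 did not pass, a 37.5% share of lower calls near the 32.1% of all genes, with a median log2 fold change of -0.09. Ndufaf8, the partner of the hydroxylase Ndufaf5 that modifies Ndufs7, stood at 1.91, 3.05 and 3.45 CPM in PP2AcKO and at 4.70, 4.97 and 6.496 CPM in PP2AcWT. Replicate 1 of PP2AcKO was the lowest of the 6 libraries, the groups did not overlap, and the log2 fold change was -0.95 (SE 0.22, adjusted p = 0.00439). Without both libraries numbered 1 it was -0.81 (adjusted p = 2.7e-05).

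Ndufaf7, a methyltransferase of complex I assembly, stood at 13.9, 12.7 and 12.5 CPM in PP2AcKO and at 16.7, 15.8 and 16.9 CPM in PP2AcWT. Ndufaf6, needed for the part of the complex that holds the mitochondrially encoded ND1 protein, stood at 4.17, 4.25 and 4.37 CPM in PP2AcKO and at 5.58, 5.15 and 5.16 CPM in PP2AcWT. Neither overlapped between the groups, and the log2 fold changes were -0.34 (SE 0.09, adjusted p = 0.00731) for Ndufaf7 and -0.32 (SE 0.10, adjusted p = 0.0221) for Ndufaf6. The Ndufaf6 call was lost without any 1 library other than PP2AcWT replicate 2, with adjusted p between 0.0507 and 0.0716, and without both libraries numbered 1 (0.0592).

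Ndufaf2, the assembly factor that holds the place of its paralogue Ndufa12, rose. It stood at 15.7, 13.8 and 14.2 CPM in PP2AcKO and at 12.0, 10.6 and 12.1 CPM in PP2AcWT. The groups did not overlap, and the log2 fold change was 0.33 (SE 0.10, adjusted p = 0.0143). Without PP2AcWT replicate 2 it was 0.28 (adjusted p = 0.0588). Ndufaf2 (ENSMUSG00000068184.7) lies on chromosome 13, 108002715 to 108158623, minus strand, and 65.6% of its exon bases lie opposite exons of B230220B15Rik, which had 0 counts in PP2AcKO and 4 in PP2AcWT. Ndufaf4 did not pass (0.21, adjusted p = 0.211) but did with the replicate block (0.00488), and PP2AcKO replicate 1 was its highest library at 35.2 CPM, against 24.3 and 27.4 CPM in the other PP2AcKO libraries. Ndufaf1, Ndufaf3 and Ndufaf5 had log2 fold changes of -0.15, -0.02 and -0.03 and overlapping groups.

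The members also differed in how steady the change was between libraries. Set against the mean of PP2AcWT, the median log2 ratio over the 45 tested members was -0.54, -0.35 and -0.39 in replicates 1, 2 and 3 of PP2AcKO. Within same-numbered pairs the median log2 ratio was -0.52, -0.27 and -0.46, with 41, 35 and 40 members below 0, while the median over all genes lay between -0.01 and 0.00 in each pair. Of the 45 members 34 were negative in all 3 pairs, 7 in 2 pairs and 4 in none, and those 4 were Ndufa12, Ndufs4, Ndufaf2 and Ndufaf4. The share of all genes negative in these pairs was not counted. With the replicate number as a block 36 members fell and 3 rose, and without both libraries numbered 1 there were 32 lower and 3 higher calls. Over all genes the calls were 5774 lower and 5721 higher with the block, and 5535 and 5588 without those libraries.

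Fold change showed little relation to level or transcript length. Across the 45 tested members, which share the same 6 libraries, the log2 fold change had a Pearson r of -0.11 and a Spearman rho of -0.18 with log2 CPM in PP2AcWT, and 0.10 and 0.11 with the log2 length of the principal mRNA. Members are short genes, and 32 of the 45 had exon lengths in the lowest quartile of tested genes, 56 to 2434 bases. In that quartile 30.4% of 3697 genes were called lower, with a median log2 fold change of -0.10, and so were 21 of its 32 members. The tested members lie on 17 chromosomes.

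Per length of mRNA, the members ranged widely in level. In PP2AcWT Ndufa2 stood at 88.4, Ndufa7 at 85.9 and Ndufa4 at 83.0 CPM per kb, and these 3 lie within the spread of their libraries. Ndufb2 was lowest, at 0.441 CPM per kb in PP2AcKO and 0.793 CPM per kb in PP2AcWT, over a principal mRNA of 4371 bases. Principal mRNAs of the other tested Ndufb members had 623 to 1079 bases. Where transcripts ranked equally the longest was taken, so the Ndufb2 value depends on that choice of length. Before scaling by length Ndufb2 stood at 1.93 CPM in PP2AcKO and 3.47 CPM in PP2AcWT, also the lowest of the tested members. The class medians were 40.4 CPM per kb in PP2AcKO and 52.1 in PP2AcWT for Ndufa, 23.7 in PP2AcKO and 33.4 in PP2AcWT for Ndufb, and 28.5 in PP2AcKO and 38.8 in PP2AcWT for Ndufs, Ndufv and Ndufc. Assembly factors had low messages, with a median of 7.46 CPM per kb in PP2AcKO and 7.61 in PP2AcWT.

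**Figure D3:**
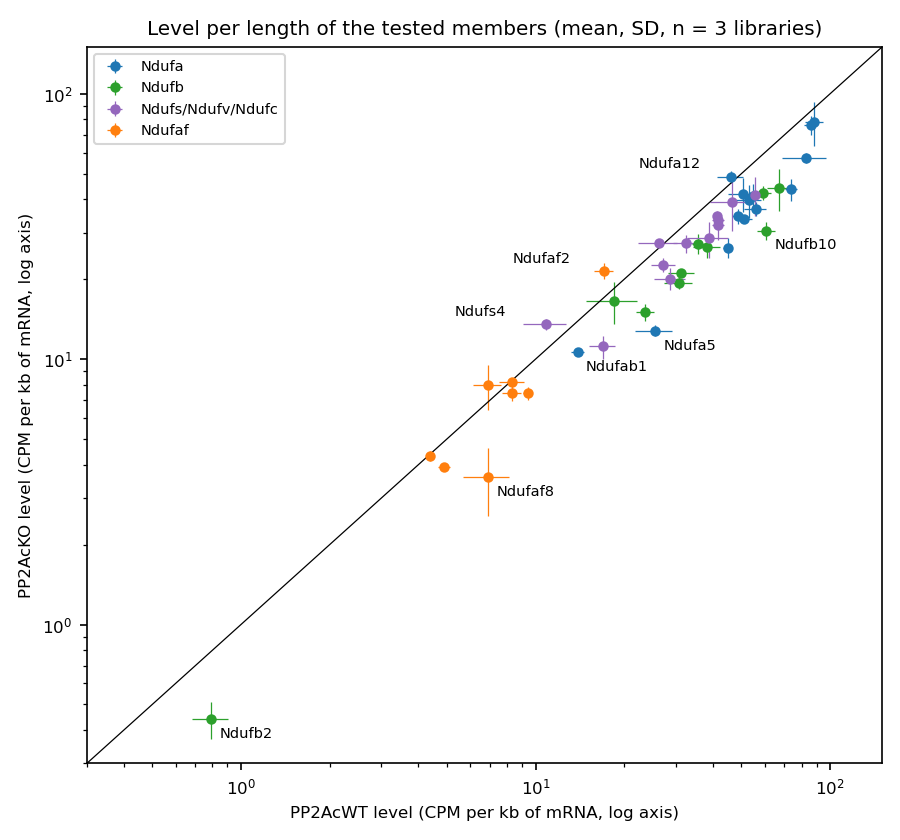
Each point is a tested member described here, with its mean level in PP2AcKO (vertical) against that in PP2AcWT (horizontal) in CPM per kb of principal mRNA on log axes, bars showing the SD over 3 libraries and the line marking equal levels. Most subunits lie below the line, Ndufb2 is the lowest at 0.441 in PP2AcKO and 0.793 in PP2AcWT, and Ndufaf2 and Ndufs4 lie above the line.

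Complex I also holds 7 core subunits encoded in mitochondrial DNA, which form the proton-pumping membrane core, and 5 of their messages passed the filter. Of those 5, 2 fell (40%, beside 32.1% of all genes) and 3 did not pass, with a median log2 fold change of -0.37. mt-Nd6, the only one encoded on the light strand of mitochondrial DNA, stood at 154.7, 185 and 194.7 CPM in PP2AcKO and at 215, 278 and 271.5 CPM in PP2AcWT. The groups did not overlap (log2 fold change -0.52, SE 0.12, adjusted p = 0.00436). mt-Nd2 stood at 2039, 1404 and 1421 CPM in PP2AcKO and at 2662, 2038 and 2095 CPM in PP2AcWT, with PP2AcKO replicate 1 just above PP2AcWT replicate 2. It passed (log2 fold change -0.48, SE 0.16, adjusted p = 0.0247), but not without PP2AcKO replicate 2 (0.0828), PP2AcKO replicate 3 (0.0903) or PP2AcWT replicate 1 (0.0723).

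mt-Nd1 stood at 3251, 2104 and 2171 CPM in PP2AcKO and at 3715, 2558 and 2727 CPM in PP2AcWT. mt-Nd4 stood at 1466, 1027 and 1053 CPM in PP2AcKO and at 1803, 1342 and 1422 CPM in PP2AcWT. mt-Nd5 stood at 2546, 1752 and 1836 CPM in PP2AcKO and at 2680, 2096 and 2177 CPM in PP2AcWT. In each of these the libraries numbered 1 were the highest of their groups, the groups overlapped, and the log2 fold changes were -0.26, -0.37 and -0.18 (adjusted p = 0.259, 0.0661 and 0.317). With the replicate block all 5 tested messages were called lower, mt-Nd1 with an adjusted p of 3.4e-06, mt-Nd4 of 9.7e-08 and mt-Nd5 of 0.00027, and all 5 were called lower without PP2AcKO replicate 1 and without both libraries numbered 1. In those fits, in that order, 5774, 4759 and 5535 of all genes were called lower. mt-Nd3 had 19 counts in PP2AcKO and 18 in PP2AcWT, and mt-Nd4l 4 and 4. mt-Nd4 also passed in the DESeq2 Wald test (0.0462), with upper-quartile factors (0.0353) and with library totals alone (0.0304), and with no filter on low counts 4 of the mitochondrial messages were called lower. Most mitochondrial messages carry short poly(A) tails, and how far poly(A) selection shaped the levels given here was not tested. mt-Nd6 lies on the strand opposite the other mitochondrial subunits, and the strand setting is not given. Whether the reads counted for mt-Nd6 come from its own message was not tested.

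Assembly factors named outside the Nduf family had calls in both directions, at shares below those of all genes. The 13 tested comprised 3 that fell, 3 that rose and 7 that did not pass, or 23.1% in either direction beside 32.1% lower and 31.9% higher over all genes, with a median log2 fold change of 0.06. Aifm1, a mitochondrial oxidoreductase needed for complex I biogenesis, stood at 54.4, 58.8 and 54.9 CPM in PP2AcKO and at 109, 108 and 112 CPM in PP2AcWT (log2 fold change -0.97, SE 0.07, adjusted p = 2.4e-06). Acad9, an acyl-CoA dehydrogenase that acts in assembly of the membrane arm, stood at 24, 27.3 and 25.5 CPM in PP2AcKO and at 41.4, 39.6 and 39.4 CPM in PP2AcWT (-0.65, SE 0.08, adjusted p = 8.5e-05). Both were lower in all 3 PP2AcKO libraries, with narrow spread.

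Tmem126a, an assembly factor of the distal membrane arm, stood at 60.0, 45.9 and 46.9 CPM in PP2AcKO and at 23.7, 16.7 and 20.2 CPM in PP2AcWT. It rose (log2 fold change 1.33, SE 0.15, adjusted p = 5.5e-05), with every PP2AcKO library above every PP2AcWT library. Dmac2, also linked to the distal membrane arm, stood at 8.11, 10.6 and 9.94 CPM in PP2AcKO and at 7.03, 6.49 and 7.08 CPM in PP2AcWT (0.48, SE 0.12, adjusted p = 0.00695). Lyrm2 rose (0.54) and Foxred1 fell (-0.33), and the Foxred1 call was lost without PP2AcWT replicate 2 (adjusted p = 0.0581) or 3 (0.0596). With the replicate block 5 of the 13 fell and 4 rose, and 5 fell with upper-quartile factors or library totals alone. Over all 14877 genes tested the block called 5774 lower and 5721 higher. Upper-quartile factors called 5296 lower, and library totals alone 5497. Tmem126b passed upward with the replicate block (0.30, adjusted p = 0.00153) and without both libraries numbered 1 (0.37, adjusted p = 0.000472).

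Of 23 tested regulators of mitochondrial gene expression, 12 rose (52.2%), 3 fell and 8 did not pass, with a median log2 fold change of 0.39. Over all genes 31.9% rose and 32.1% fell. Ppard, a fatty acid-sensing nuclear receptor, stood at 167.5, 215 and 207 CPM in PP2AcKO and at 54.5, 69.3 and 66.5 CPM in PP2AcWT (1.63, SE 0.12, adjusted p = 4.3e-06). Gabpb1, a subunit of the ETS factor GABP, also known as NRF2, stood at 66.0, 56.5 and 57.2 CPM in PP2AcKO and at 36.4, 30.9 and 31.2 CPM in PP2AcWT (0.87, SE 0.10, adjusted p = 5.2e-05). Both were separate between the groups, and Gabpa, the DNA-binding subunit of GABP, rose as well (0.59).

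Gabpb2, a further GABP subunit, stood at 147, 137 and 130 CPM in PP2AcKO and at 100, 93.8 and 96.4 CPM in PP2AcWT (0.51, SE 0.07, adjusted p = 0.000214). Pparg, a nuclear receptor related to Ppard, stood at 2.24, 1.95 and 2.15 CPM in PP2AcKO and at 4.45, 4.06 and 4.53 CPM in PP2AcWT (-1.04, SE 0.12, adjusted p = 7.9e-05). The pair moved in opposite directions without overlap between the groups. Nrf1 rose by less (0.26, adjusted p = 0.0156), a call lost with upper-quartile factors (0.0511), with library totals alone (0.0701) and without PP2AcKO replicate 3 (0.0667) or PP2AcWT replicate 3 (0.0598). Among the coactivators of the PGC-1 family Pprc1 (-0.57) and Ppargc1b (-0.57) fell, and Ppargc1a was below the filter with 25 counts in PP2AcKO and 17 in PP2AcWT. Esrrb had 53 counts in PP2AcKO and 6 in PP2AcWT, so its fitted value depends on few reads. With the replicate block 15 of the 23 rose and 6 fell, and 5 fell without PP2AcKO replicate 1. Over all genes 5721 rose and 5774 fell with the block, and 4759 fell without PP2AcKO replicate 1. Esrra did not pass (0.21, adjusted p = 0.274), but did with the replicate block (0.00136), without PP2AcKO replicate 1 (0.0121) and without both libraries numbered 1 (4.1e-05). Polrmt rose (0.46, adjusted p = 0.0248), a call lost without PP2AcKO replicate 2 (0.0664), PP2AcKO replicate 3 (0.0815) or PP2AcWT replicate 1 (0.0586) and with library totals alone (0.0531).

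**Figure D4:**
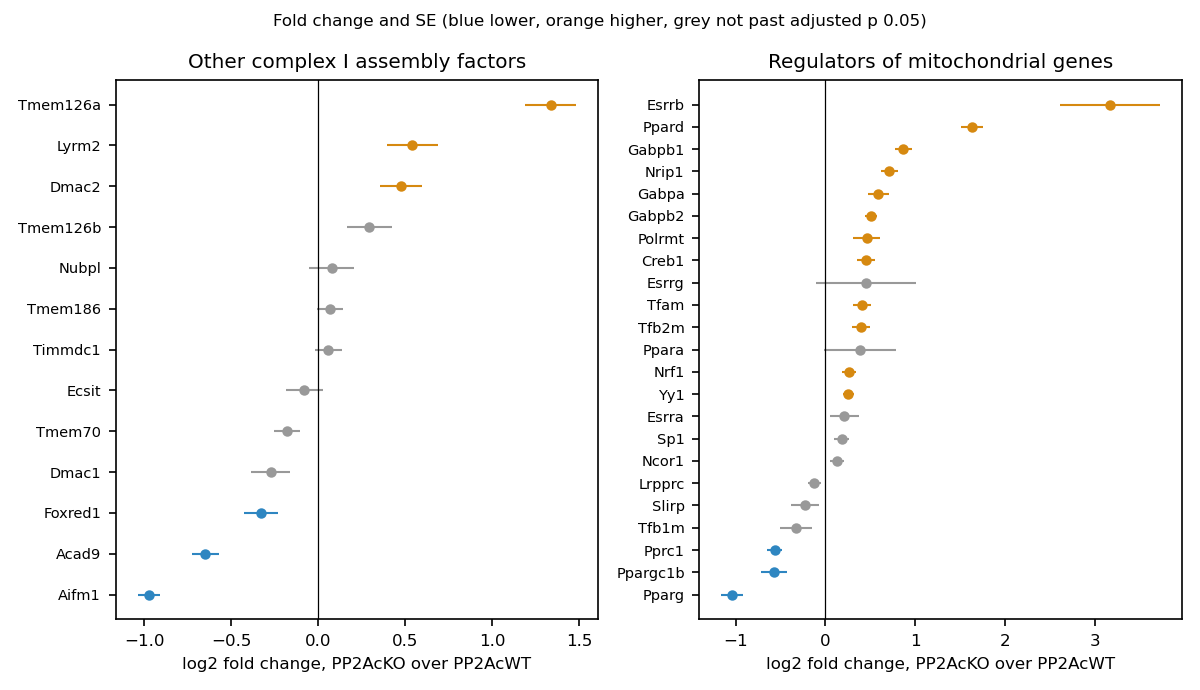
Points are log2 fold changes, PP2AcKO over PP2AcWT, with bars of 1 SE from the edgeR fit, for 13 assembly factors outside the Nduf family (left) and 23 regulators (right). Aifm1 at -0.97 and Tmem126a at 1.33 mark the ends of the left panel, and 12 regulators stand past the threshold on the higher side and 3 on the lower side.

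The other respiratory complexes were lower to a similar extent. Of 41 tested subunits of complexes II to V, 32 fell (78.0%) and 1 rose, with a median log2 fold change of -0.47, beside 68.9% and -0.41 for the Nduf members. The 1 higher call, in complex III, was lost without PP2AcKO replicate 2 or 3 or PP2AcWT replicate 2, and with upper-quartile factors or library totals alone. By complex, 4 of 4 fell in complex II (2 without PP2AcWT replicate 3), 5 of 9 in complex III, 8 of 11 in complex IV and 15 of 17 in complex V. Of 77 mitochondrial ribosomal proteins 32 fell (41.6%) and 7 rose, with a median of -0.17. Over all genes 32.1% fell and 31.9% rose. The 7 higher calls became 12 with the replicate block, 13 without both libraries numbered 1, and 4 without PP2AcWT replicate 2 or 3 and with upper-quartile factors or library totals alone, where 43 of the 77 were called lower. Over all genes 5721 rose with the block, 5588 without both libraries numbered 1, and 4345 and 4258 without PP2AcWT replicate 2 and 3. With upper-quartile factors and library totals alone 4298 and 4150 genes rose, and 5296 and 5497 fell. Of 5 tested factors linked to supercomplexes of the respiratory chain, Cox7a2l rose (0.23, adjusted p = 0.0316) and 4 did not pass. The Cox7a2l call was lost without any 1 library other than PP2AcKO replicate 1 or PP2AcWT replicate 1, with adjusted p between 0.0518 and 0.12, and with upper-quartile factors (0.103) or library totals alone (0.148). With the replicate block Higd2a passed upward as well (0.19, adjusted p = 0.00972), as it did without PP2AcKO replicate 1 (adjusted p = 0.04999), PP2AcWT replicate 3 (0.0444) or both libraries numbered 1 (0.018). Whether the Nduf members differ from these lists was not tested.

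**Figure D5:**
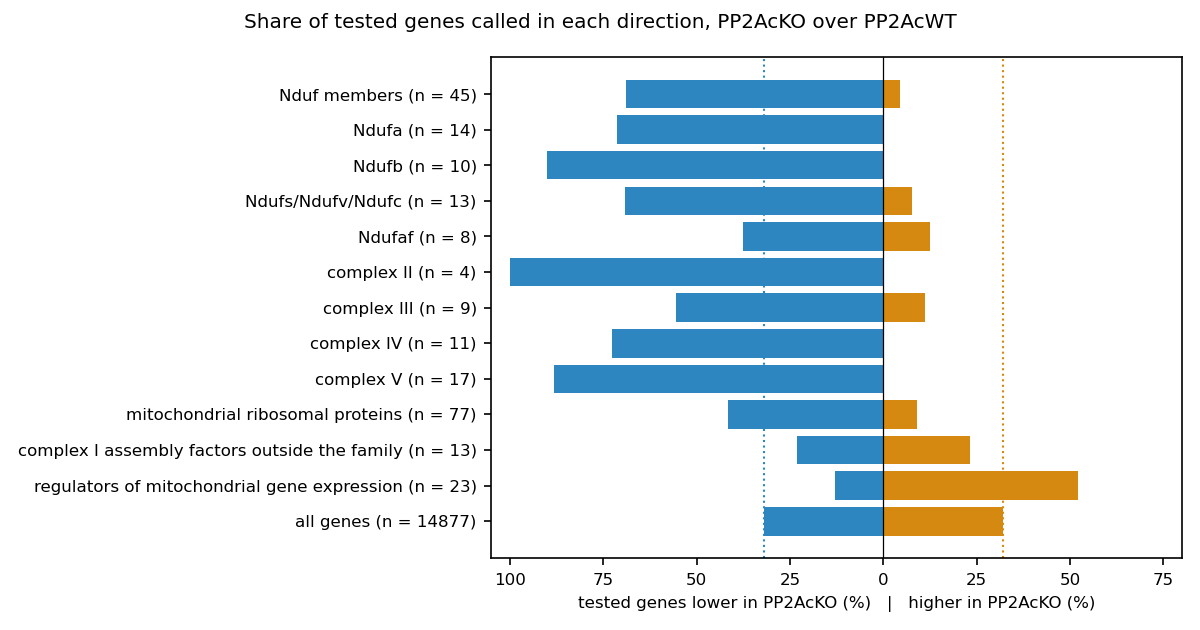
Bars to the left give the percentage of tested genes called lower in PP2AcKO and bars to the right the percentage called higher, for each class and list, with dotted lines at the 32.1% and 31.9% of all genes. Ndufa, Ndufb and Ndufs, Ndufv and Ndufc extend far left of the line at 71.4%, 90% and 69.2%, as complexes II to V do, while Ndufaf at 37.5% ends near it.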

How the data were processed

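The authors deposited raw counts of reads for each gene symbol in a single table. Per the submitters' processing notes, which give no roles, the tools were HTSeq 0.11.2, STAR 2.7.1a and fastp 0.20.0, then limma 3.48.3 and edgeR 3.34.0, on mm10 and GRCm38. The strand setting is not given in the sources used here, so reads of genes that overlap on opposite strands cannot be told apart. Of the 45 tested members 16 have such an exon overlap, 3 of them over at least 20% of exon bases. Well expressed partners with smaller overlaps include Rbm10 for Ndufb11, Eef1b2 for Ndufs1, Impdh2 for Ndufaf3 and Braf for Ndufb2. Impdh2 had 9556 counts in PP2AcKO and 22442 in PP2AcWT, beside 800 and 875 for Ndufaf3. Braf had 7409 and 7301, beside 242 and 472 for Ndufb2. How far these overlaps shape the values was not tested.

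The 14877 genes kept by filterByExpr were scaled by TMM and tested by quasi-likelihood in edgeR 4.0.16 (R 4.3.3), with Benjamini-Hochberg adjustment over all of them and a threshold of 0.05. CPM values use TMM-scaled totals, per-sample values are in the order of replicates 1, 2 and 3, and fold changes are PP2AcKO over PP2AcWT. SEs were derived from F statistics. Precision is limited by 3 libraries per group. Levels per length use principal mRNAs of GENCODE M21, and exon overlaps the same release.

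Replicates were compared by a chi-square statistic per degree of freedom, which was 48.4, 42.1 and 3.41 for the PP2AcKO pairs 1 and 2, 1 and 3, and 2 and 3, and 40.8, 29.7 and 4.61 for the PP2AcWT pairs in that order. No pair lay within sampling noise. Same-numbered libraries deviated together (Pearson r of 0.44, 0.16 and 0.15 for numbers 1, 2 and 3), and by that the numbers were taken as pairs. The labels give only the numbers, and libraries 2 and 3 across groups correlated as much (0.15 and 0.19).

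The members and lists were chosen with earlier results of these data known. Library values are given for the 4 smallest adjusted p of each class, every member that rose, Ndufa4, Ndufa4l2, members below the filter, and up to 4 genes and the 7 mitochondrial subunits of the other lists. Other genes are named with a fold change or counts only. Ndufs5, Ndufs7, Ndufa12, Ndufb1-ps, Esrrb, Esrra, Polrmt, Tmem126b, Kdr, Tek, Pdgfra, Cspg4, Ptprc, Csf1r, Lyz2, Rbm10, Eef1b2 and the libraries given for Ndufv1, Ndufv2, Ndufb7 and Ndufaf4 were chosen after their values were seen. So were Pecam1, Itgam, Aif1, Impdh2 and Braf. The totals include 1 member whose own values are not reported here. The symbol Coa1 was not matched. Alternatives were DESeq2 1.42.0, limma-voom of limma 3.58.1, other scalings, filters, fold thresholds, a replicate block and libraries left out. The code was tested on simulated data.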

Additional observations from a re-analysis of the deposited data

How the results depend on the processing

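With DESeq2 size factors, the DESeq2 Wald test, limma-voom or a minimum of 1 CPM in 3 libraries, the calls were 31 lower and 2 higher members. Genes called lower in these 4 settings numbered 4270 to 4767, and genes called higher 4241 to 4832. Without a filter the calls were 30 lower and 2 higher members, the Ndufaf6 call being lost, beside 5217 genes lower and 5257 higher. Upper-quartile factors and library totals alone gave 34 lower and 1 higher each, with all-gene medians of -0.07 and -0.09, and in both Ndufs4 did not pass. The genes called lower were then 5296 and 5497, and those called higher 4298 and 4150. Against a 1.2-fold change the calls were 20 lower and 0 higher members, beside 3602 genes lower and 3572 higher. Those 20 held 3 Ndufs, Ndufv and Ndufc members and 1 Ndufaf member. Against a 1.5-fold change the calls were 4 lower and 0 higher members, beside 1957 genes lower and 2009 higher. Those 4 held 3 Ndufa, 1 Ndufb, 0 Ndufs, Ndufv and Ndufc and 0 Ndufaf members. Leaving out 1 library at a time gave 27 to 30 lower and 0 to 2 higher members, with 10 to 11 Ndufa, 9 Ndufb, 6 to 9 Ndufs, Ndufv and Ndufc and 2 to 3 Ndufaf members lower and medians of -0.45 to -0.32. Over all genes those fits called 4199 to 4759 lower and 4258 to 4942 higher. For these counts the stricter fold thresholds ask for a larger change by construction, and the cause of the other shifts was not tested. The replicate block gave 36 lower and 3 higher members and a median of -0.41, beside 5774 genes lower and 5721 higher. It added the calls given beside Ndufa1, Ndufa2, Ndufa7, Ndufc2, Ndufs7, Ndufaf4 and the mitochondrial subunits and changed no other call among the Nduf members. No member past the threshold changed sign under any of the 17 other settings. The other lists were run under the same settings, chosen after seeing the data. Shifts in the counts and genes described stand with their results, and further single calls in those lists moved as well. Depth limits Ndufa4l2 and the pseudogenes, for which a difference was not detectable at these counts.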
